A study of Saccharomyces cerevisiae with 48 samples.

Results

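The genes described here are GCN4 and 48 genes of amino acid biosynthesis in the budding yeast Saccharomyces cerevisiae, 49 of the 5449 genes measured on the arrays. They were chosen by name, as enzymes of the arginine, histidine, lysine, leucine, isoleucine and valine, tryptophan, aromatic, threonine and homoserine, serine, glutamate and glutamine, asparagine and proline pathways. Genes of sulfur amino acids were not included. Each gene was read from 1 probe set, and all 49 stood above background on all 48 arrays.

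Gcn4 is a leucine zipper transcription factor that switches on genes of most amino acid pathways. Its own output is set mainly at translation: short reading frames in the leader of the GCN4 mRNA hold the level of the protein down until the kinase Gcn2, which senses uncharged tRNA, phosphorylates the initiation factor eIF2. Transcript levels of GCN4 therefore need not follow those of its targets, which also answer to regulators of single pathways.

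RNA was taken in 3 time courses, 1 array per sample. Small daughter cells were separated by size from cultures grown at 25 °C in YEPD, a rich medium that supplies amino acids, and were put into YEPD at 37 °C at 0 min. The cdc28-4 strain (background BF264-15DU, mating type a) carries a temperature-sensitive allele of CDC28, the gene of the cyclin-dependent kinase that drives the cell cycle, and is labelled as without Cdk activity at 37 °C. It was followed in 2 courses sampled every 20 min, 15 arrays from 10 to 290 min and 18 arrays from 10 to 350 min. The strain labelled wild-type has active CDC28 in the same background and mating type, carries the bar1 genotype, and was followed in 1 course of 15 arrays sampled every 15 min from 15 to 225 min. All groups share the temperature shift and the medium. The labels place each array only by strain, time and, in cdc28-4, course, so a course is taken here as 1 culture and its arrays as successive samples of it.

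Median gene intensity was between 1486 and 1645 on single arrays, from 90.8% to 96.6% of genes stood above background, and background itself was at an intensity of 270 to 462. The mating type markers followed the labels in part. The a-cell genes STE2, STE6, MFA1, MFA2, ASG7 and AGA2 were above background on all arrays of both strains, and BAR1 was above background on 33 of 33 cdc28-4 arrays and 0 of 15 wild-type arrays. Summed over the 7 a-cell markers, the level ran from 15.16 to 15.77 in cdc28-4 and from 14.59 to 15.27 in wild type. Of the 4 alpha-cell markers, SAG1 was above background everywhere, STE3 on 31 of 33 cdc28-4 and 3 of 15 wild-type arrays, and MF(ALPHA)1 on 24 of 33 and 0 of 15. MF(ALPHA)2 was above background on 33 of 33 cdc28-4 and 0 of 15 wild-type arrays. The summed alpha-cell level ran from 10.85 to 12.48 in cdc28-4 and from 10.63 to 10.96 in wild type, and its part in the results was not tested. The 170 min array of the second cdc28-4 course stood apart from its neighbours in time, with an SD over all genes of 0.318 between it and the mean of the arrays just before and after, where the first course's 170 min array had 0.044. This pair of arrays enters the spread behind every test below. Without it no call among the 49 genes was lost, and 1 was added over time (HOM6), 1 from 10 to 30 min (HIS5), and 5, 2 and 2 in the comparisons of strains over 4 times, from 30 to 90 min and from 90 to 210 min. The pair also enters the profile correlations and the times of highest and lowest level, of which 5 and 4 fell at 170 min in cdc28-4.

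Levels are log2 intensities and changes are log2 differences, so a change of 1 is a doubling. The SE comes from the limma model. The words rose, fell and differed are used where the p-value adjusted over all 5449 genes was under 0.05. All p-values below are from one limma fit. As the samples are bulk RNA, fewer cells with a transcript and less of it in each cell cannot be told apart.

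The first question was which of these genes changed with time in cells without Cdk activity. Over the 15 times that both cdc28-4 courses share, 48 of 49 passed the F test of a time effect, where 84.5% of all genes did. HIS4 had the highest F, 237 (adjusted p = 1.06e-15), and HOM6, the homoserine dehydrogenase gene, alone did not pass, with F = 2.10 (adjusted p = 0.0771, and 0.0377 with the course as a block). The range of a gene's mean level over time ran from 0.28 to 2.94 with a median of 0.93, against a median of 0.69 for all genes. The profiles of both courses ran together, with a median Pearson's r of 0.95 over 15 times (0.48 to 0.99), as a description.

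**Figure D1:**
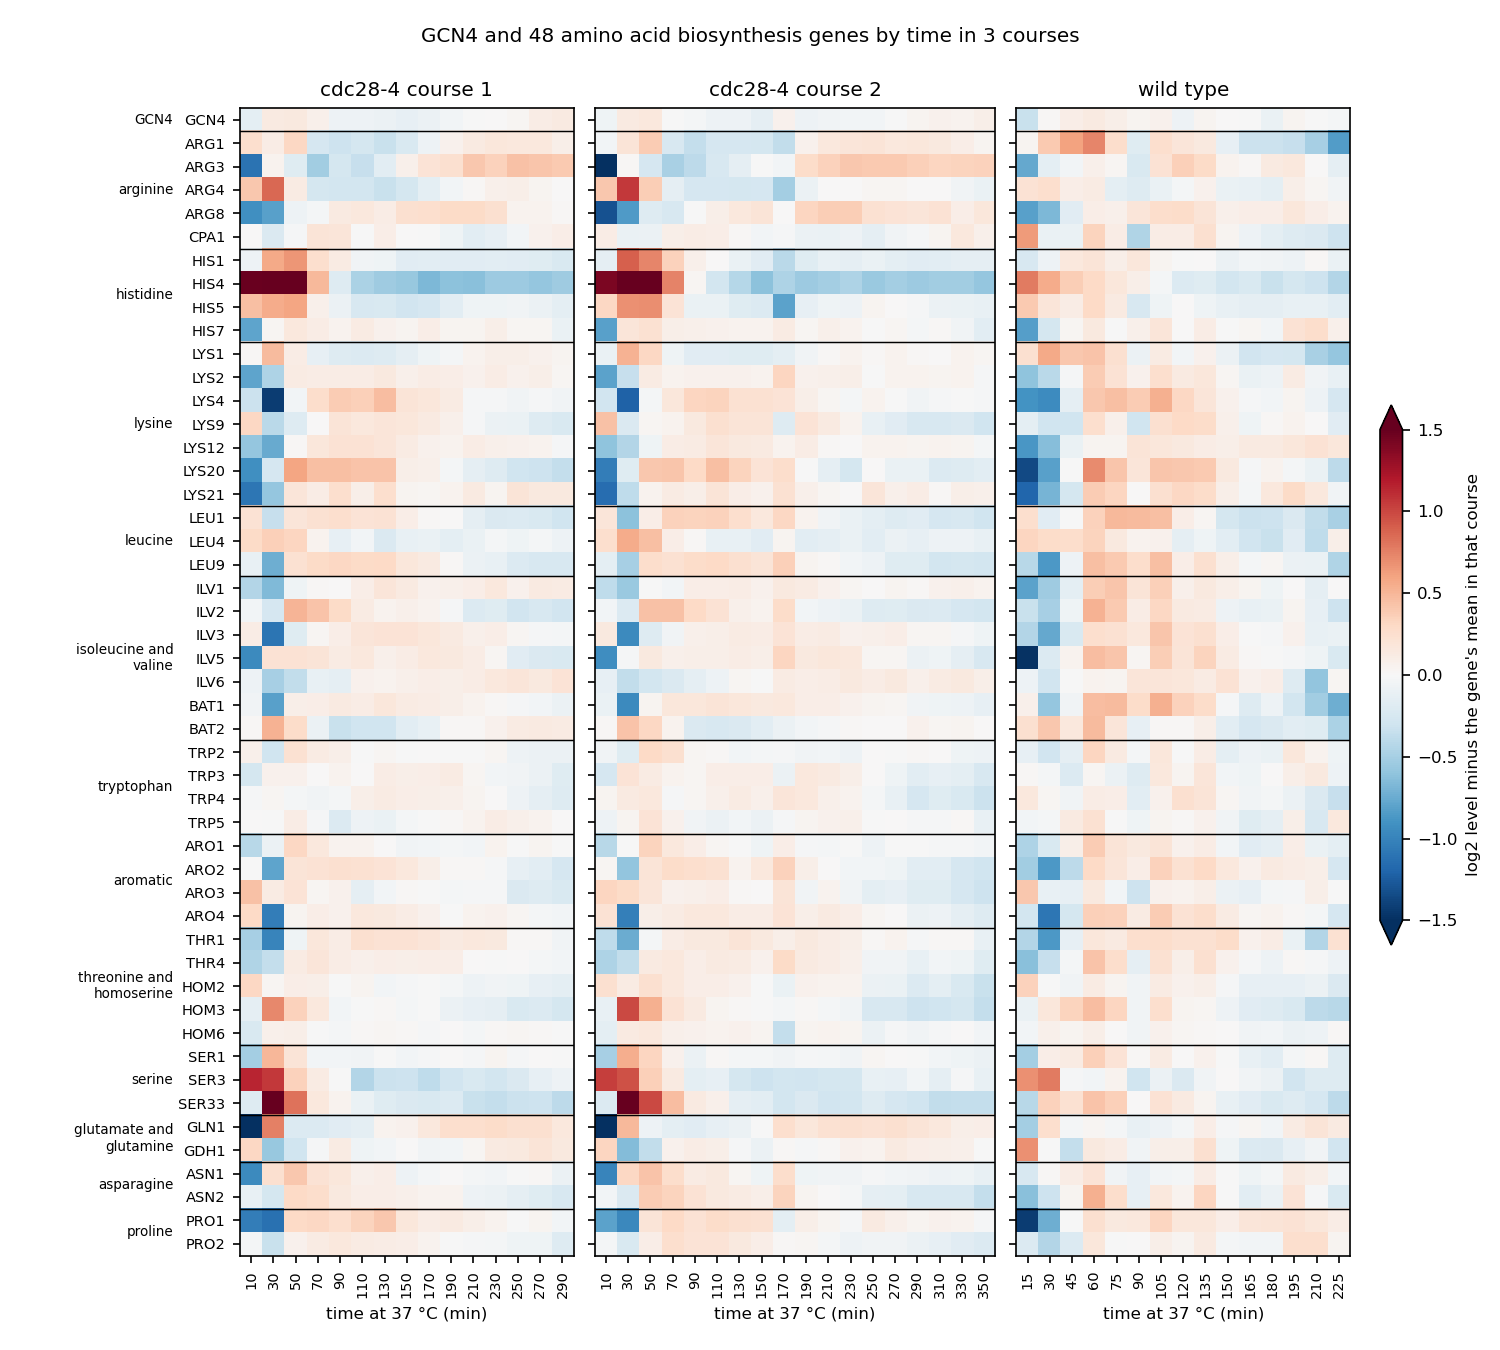
Log2 level of each of the 49 genes, minus that gene's own mean in the course, by time in min for both cdc28-4 courses and the wild-type course, with lines between pathways and colours capped at 1.5 in each direction. Most of the colour lies in the first 50 min at 37 °C, and genes of the same pathway differ in sign at 30 min.

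The early times carried most of the change. In cdc28-4, 18 of the 49 genes had their lowest mean level at 30 min and 14 at 10 min. The shares of all genes lowest at these times were not counted. The highest mean level fell at 30 or 50 min for 22 of 49 (44.9%, where 22.4% of all genes peak at these times). The heat map of all 49 profiles shows that genes of 1 pathway were split between these classes. Thus LYS1 peaked at 30 min, when LYS4 and LYS9 were at their lowest. LYS12 was as low at 10 min, with a change of -0.0016 (adjusted p = 0.989).

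GCN4 itself (YEL009C) moved little, over a range of 0.28 in cdc28-4. Its mean level there stood at percentile 96.8 of all genes, and whether so high a signal narrows the range was not tested. On the 2 cdc28-4 arrays per time its level was 13.51 and 13.62 at 10 min, 13.78 and 13.82 at 30 min, 13.79 and 13.85 at 50 min and 13.58 and 13.66 at 90 min. It was lowest at 150 min, at 13.53 and 13.56, and stood at 13.78 and 13.73 at 290 min. Both 30 min arrays were above both 10 min arrays and both 90 min arrays. GCN4 rose by 0.24 from 10 to 30 min (SE 0.060, adjusted p = 0.00207), which is 1.18-fold, and changed by -0.18 from 30 to 90 min (SE 0.060, adjusted p = 0.0124). The second call was lost without the first course's array at 90 min (adjusted p = 0.113) or the second course's at 30 min (0.0663). From 90 and 110 min to 270 and 290 min it rose by 0.13 (SE 0.042, adjusted p = 0.0114), a call lost without the first course's array at 90 min (0.0534) or at 270 min (0.0545). In wild type it was lowest at 15 min, at 13.31, stood at 13.67 at 30 min, peaked at 13.78 at 60 min and ran from 13.56 to 13.75 on the other arrays after 30 min. Its time effect in cdc28-4 had F = 3.98 (adjusted p = 0.00416).

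**Figure D2:**
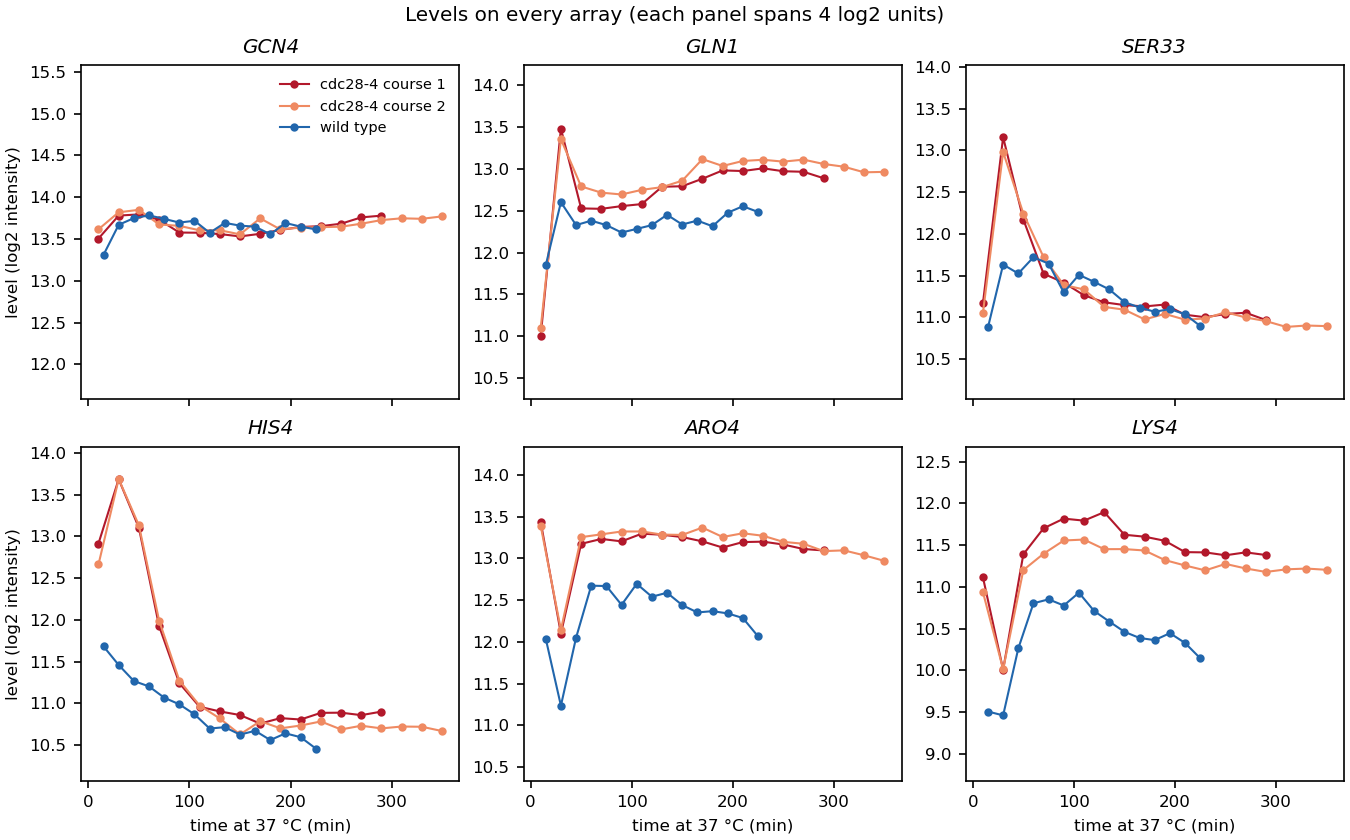
Log2 level on every array against time in min at 37 °C for GCN4, GLN1, SER33, HIS4, ARO4 and LYS4, with each line a course and each panel spanning 4 log2 units. GCN4 is nearly flat, GLN1 and SER33 have a peak at 30 min in cdc28-4, HIS4 falls after 30 min, and ARO4 and LYS4 have a trough at 30 min.

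The change from 10 to 30 min in cdc28-4 (2 arrays each) shows which genes rose or fell between these early times. None of the arrays precedes the shift, so levels before it and changes up to 10 min are not known. Whether the shift itself caused the changes from 10 to 30 min was not tested. Of the 49, 20 rose and 18 fell, where 55.9% of all genes changed (31.4% rose and 24.5% fell), and the median change of 0.07 was near that of all genes, 0.04. No histidine or serine gene fell and no leucine or proline gene rose, whereas the other pathways held genes that went each way.

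GLN1, which encodes glutamine synthetase, stood at 11.00 and 11.10 at 10 min and at 13.48 and 13.36 at 30 min. It rose by 2.37 (SE 0.10, adjusted p = 4.80e-13), or 5.18-fold, the most of the 49. By 50 min it was at 12.53 and 12.79. GDH1, the NADP-dependent glutamate dehydrogenase gene of the neighbouring step, stood at 13.66 on both 10 min arrays and at 12.78 and 12.68 at 30 min, a fall of 0.93 (SE 0.062, adjusted p = 3.00e-10). The 2 genes of ammonia assimilation thus changed in opposite directions.

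Of the 3 serine genes, 2 rose. SER33, one of a pair of genes for 3-phosphoglycerate dehydrogenase, the first step of serine synthesis, went from 11.17 and 11.05 to 13.16 and 12.98, a rise of 1.96 (SE 0.074, adjusted p = 9.20e-14). SER1, the phosphoserine aminotransferase gene, rose by 1.03 (SE 0.056), from 11.91 and 11.88 to 12.91 and 12.93. The other dehydrogenase gene, SER3, changed by -0.08 (adjusted p = 0.417).

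In arginine synthesis, ARG3, which encodes ornithine carbamoyltransferase, went from 11.27 and 10.77 to 12.42 and 12.41, a rise of 1.40 (SE 0.10, adjusted p = 1.11e-09). ARG4, for argininosuccinate lyase, rose by 0.55. ARG8, for acetylornithine aminotransferase, changed by 0.28 (adjusted p = 0.0756, and 0.0319 with the course as a block), and ARG1, for argininosuccinate synthetase, by 0.05 with its courses on opposite sides of 0 (-0.14 and 0.24). CPA1, for the small subunit of the arginine-specific carbamoyl phosphate synthetase, fell by 0.22 (adjusted p = 0.0109). Without the first course's 30 min array or the second's 10 min array CPA1 no longer passed, with an adjusted p of at most 0.112. The 5 arginine genes did not move as 1 group: 2 rose, 1 fell and 2 did not pass.

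Of the 4 histidine genes, 3 rose. HIS7, for imidazole glycerol phosphate synthase, rose by 0.91, HIS4, which encodes a protein with several enzyme activities of the pathway, by 0.90, and HIS1, for the ATP phosphoribosyltransferase of the first step, by 0.83. HIS5 changed by 0.24 (adjusted p = 0.0834). HIS4 stood at 12.91 and 12.66 at 10 min and at 13.68 and 13.69 at 30 min.

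Of the 7 lysine genes, 4 rose and 2 fell. The homocitrate synthase genes LYS20 and LYS21, whose products make the entry step, rose by 0.76 and 0.64, LYS1 by 0.54 and LYS2 by 0.40. LYS20 had the widest error (SE 0.24, adjusted p = 0.0106) and no longer passed without the first course's 30 min array or the second's 10 min array. LYS4, which encodes homoaconitase, went from 11.12 and 10.94 to 10.01 on both arrays, a fall of 1.02 (SE 0.15, adjusted p = 7.83e-06), and LYS9 fell by 0.68.

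All 7 isoleucine and valine genes changed, 2 up and 5 down. ILV5, for acetohydroxyacid reductoisomerase, rose by 1.04 (SE 0.14), from 12.44 and 12.60 to 13.61 and 13.51. ILV3, for dihydroxyacid dehydratase, the step after it, went from 13.31 and 13.26 to 12.10 and 12.16, a fall of 1.16 (SE 0.083, adjusted p = 7.93e-10). Successive steps of 1 pathway thus moved apart between the same arrays. ILV6, the regulatory subunit gene of acetolactate synthase, fell by 0.33. The catalytic subunit gene ILV2 fell by 0.18 and the threonine deaminase gene ILV1 by 0.20, and neither passed without the first course's array at 10 or at 30 min, nor ILV1 without the second's at 10 min. In leucine synthesis, LEU1, for isopropylmalate isomerase, fell by 0.68 and LEU9 by 0.49.

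Among aromatic genes, ARO4 fell by 1.29 (SE 0.064, adjusted p = 2.90e-12), the largest fall of the 49, from 13.44 and 13.39 to 12.10 and 12.14. It encodes the tyrosine-inhibited enzyme of the first step. ARO2, for chorismate synthase, fell by 0.71, whereas ARO1, whose product carries the steps between them, rose by 0.37. Of the tryptophan genes, TRP3 rose by 0.39 and TRP2 fell by 0.25, the latter a call lost without the first course's array at 10 or at 30 min, and TRP4 and TRP5 changed by 0.07 and 0.05 without passing.

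Of the aspartate family, HOM3, the aspartate kinase gene at the head of threonine synthesis, rose by 0.97 (SE 0.070), from 12.53 and 12.46 to 13.38 and 13.56. THR1, for homoserine kinase, fell by 0.42, and HOM2 fell by 0.20, a call lost with quantile normalization and without 3 of the 4 arrays in turn. THR4 changed by 0.09 without passing. ASN1, one of a pair of asparagine synthetase genes, went from 12.08 and 11.99 to 13.28 and 13.29, a rise of 1.25 (SE 0.073, adjusted p = 4.65e-11). PRO2 of proline synthesis fell by 0.25, a call lost without the first course's 10 min array or the second's 30 min array, and PRO1 changed by -0.13 (adjusted p = 0.317).

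**Figure D3:**
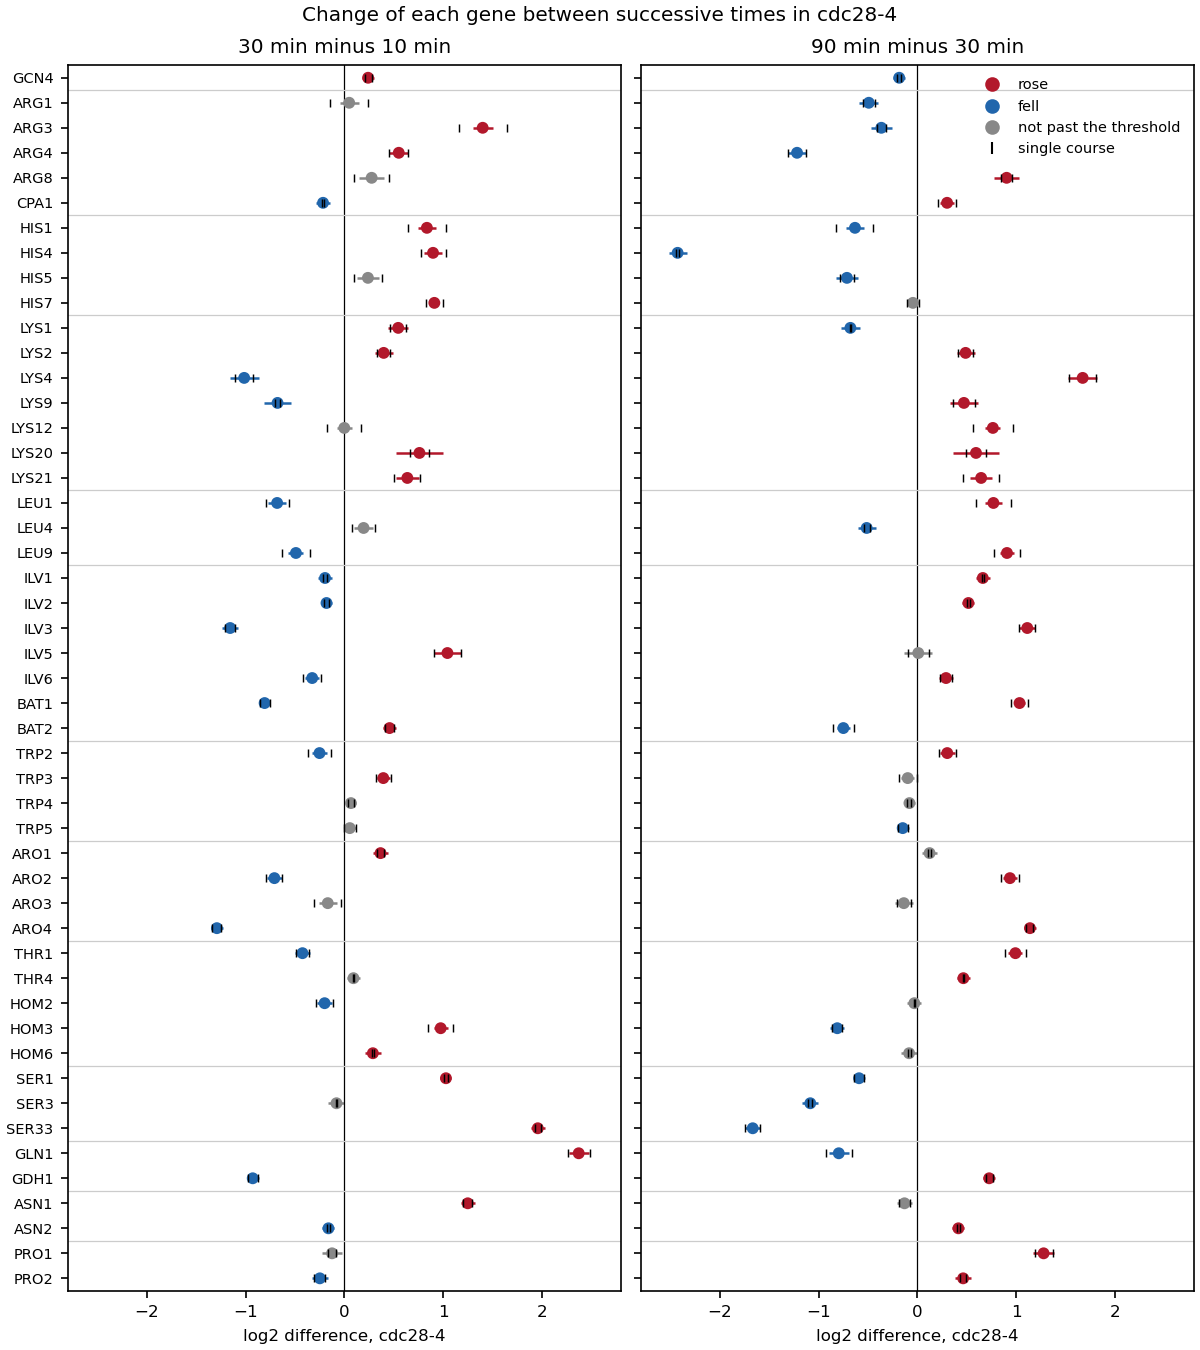
Log2 difference of each of the 49 genes in cdc28-4 from 10 to 30 min (left) and from 30 to 90 min (right), with points for the mean of 2 courses, bars for 1 SE and ticks for the single courses. GLN1, SER33 and ARG3 lie farthest right in the left panel and HIS4, SER33 and ARG4 farthest left in the right one.

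The change from 30 to 90 min asks what became of this state; it shares the 30 min arrays with the comparison before it, so a high or low value there moves both in opposite directions. Of the 49, 24 rose and 16 fell, where 60.0% of all genes changed (31.4% rose and 28.6% fell). Their median change was 0.12 against 0.01 over all genes.

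HIS4 fell by 2.43 (SE 0.092, adjusted p = 1.01e-13), from 13.68 and 13.69 to 11.24 and 11.27, and was at 11.93 and 11.99 in between, at 70 min. No later cdc28-4 array had a HIS4 level above that of 90 min. SER33 fell by 1.67 (SE 0.074), to 11.42 and 11.39, and SER3 fell by 1.08 (SE 0.081), from 12.19 and 12.11 to 11.12 and 11.01, so both dehydrogenase genes fell although 1 of them had risen before. ARG4 fell by 1.22 (SE 0.094), from 12.96 and 13.18 to 11.84 and 11.87. HOM3, GLN1, BAT2, HIS5, LYS1, HIS1, SER1, LEU4, ARG1 and ARG3 fell by 0.36 to 0.81.

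The largest rises were in LYS4, by 1.68 (SE 0.15, adjusted p = 5.76e-09) to 11.82 and 11.56, PRO1, by 1.28 (SE 0.10) from 10.06 and 10.13 to 11.43 and 11.32, and ARO4, by 1.14 (SE 0.064) to 13.20 and 13.32. PRO1 encodes the kinase of the first step of proline synthesis. ILV3, BAT1, THR1, ARO2, LEU9 and ARG8 rose by 0.90 to 1.11. In the lysine pathway 6 genes rose and LYS1 fell, and 5 isoleucine and valine genes rose and BAT2 fell. The rise of LYS20, by 0.59, no longer passed after median centring (adjusted p at most 0.333 over its alternatives) or without the first course's array at 90 min or the second's at 30 min. LYS9 rose by 0.47, not without the first course's array at 90 min (adjusted p = 0.0944), and TRP5 fell by 0.15, not without 3 of the 4 arrays in turn. ARO1 changed by 0.12 (adjusted p = 0.145, and 0.0311 with the course as a block).

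The list holds 6 pairs of genes whose products catalyse the same reaction. BAT1, the mitochondrial branched-chain aminotransferase gene, changed by -0.81 (SE 0.058) and then 1.04 (SE 0.058), and BAT2, the cytosolic one, by 0.46 (SE 0.064) and then -0.75 (SE 0.064). On the arrays BAT1 was at 12.64 and 12.44 at 30 min and BAT2 at 13.83 and 13.76, the lowest cdc28-4 values of BAT1 and the highest of BAT2. ARO3, for the phenylalanine-inhibited enzyme, changed by -0.17 (adjusted p = 0.127, and 0.0332 with the course as a block) where ARO4 fell by 1.29. ASN2 fell by 0.16 where ASN1 rose by 1.25, the former a call lost with quantile normalization and without 3 of the 4 arrays in turn. LEU4 changed by 0.19 (adjusted p = 0.0823, and 0.0225 with the course as a block) where LEU9 fell by 0.49; both encode isopropylmalate synthase. LYS20 and LYS21 rose in both steps, by 0.76 and 0.64 and then by 0.59 and 0.65, where both calls of LYS20 were lost without single arrays. Late in the course they parted: LYS20 fell by 0.62 and LYS21 changed by -0.03 (adjusted p = 0.744). Differences between the 2 genes of a pair were not tested, and signal shared by near-identical copies was not measured.

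**Figure D4:**
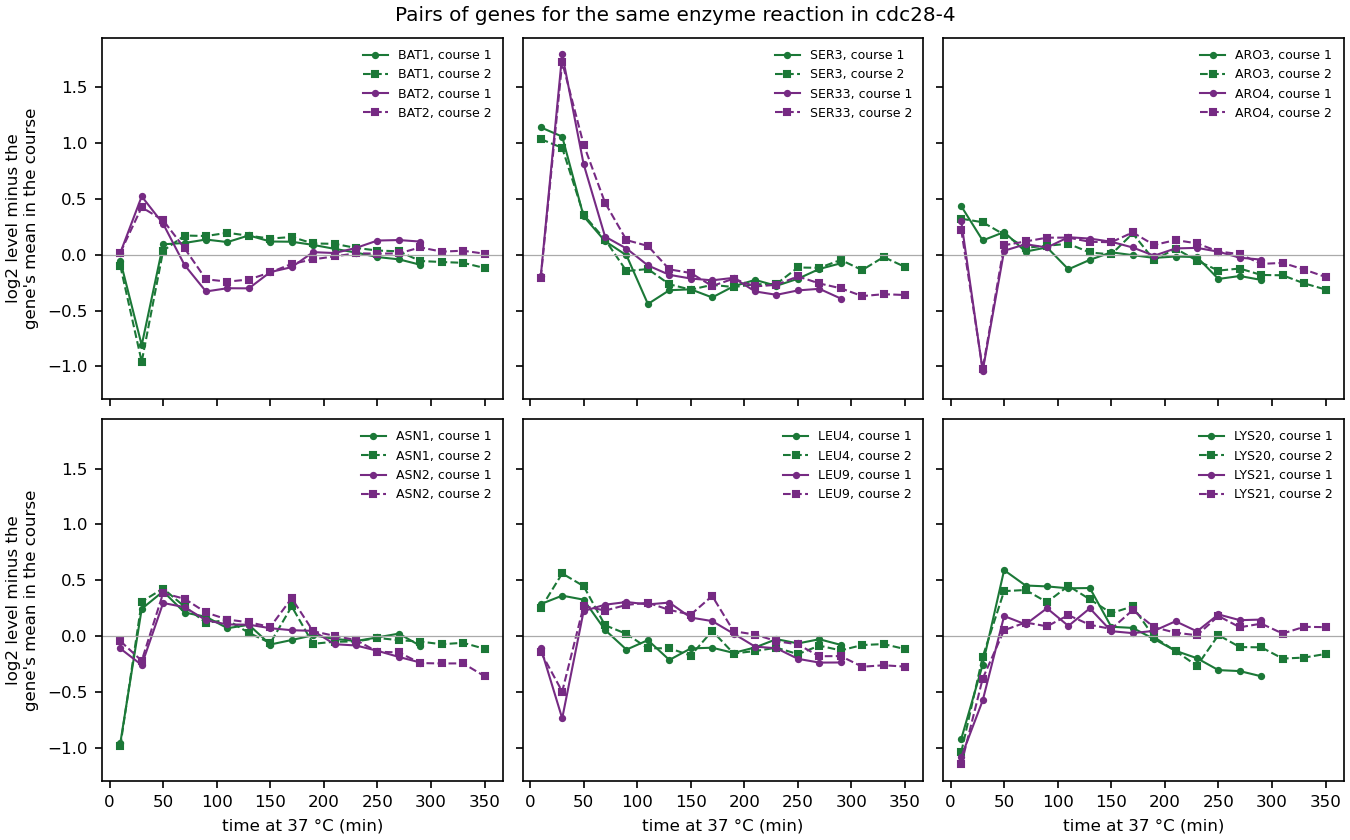
Log2 level minus the gene's own mean in the course against time in min for 6 pairs of genes for the same reaction in cdc28-4, solid lines with circles for course 1 and dashed lines with squares for course 2. BAT1 and ARO4 dip at 30 min where their partners do not, SER33 peaks there, and LYS20 and LYS21 rise together early in the course.

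Late in the course, 270 and 290 min were compared with 90 and 110 min (4 cdc28-4 arrays each), to see whether levels held. Of the 49, 9 rose and 26 fell, where 56.2% of all genes changed (27.2% rose and 29.1% fell), and the median was -0.15 against -0.02 over all genes. The 90 min arrays are shared with the comparison before it. Changes ran from -0.62 to 0.70, a narrower range than in the earlier steps. The 3′ to 5′ log2 ratio of control probe sets was also higher late. In the first course it was 1.01 and 1.03 at 90 and 110 min and 1.23 and 1.19 at 270 and 290 min. In the second course it was 0.81 and 0.80, and then 1.00 and 1.11. Its part in these changes was not tested.

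Of the 5 arginine genes 3 rose, and ARG8 and CPA1 changed by 0.02 and -0.07 without passing. ARG3 was no higher than 12.15 on the 4 arrays at 90 and 110 min and between 12.76 and 12.79 on the 4 late arrays, a rise of 0.70 (SE 0.073, adjusted p = 1.48e-07). ARG1 went from between 13.16 and 13.32 to between 13.67 and 13.74, a rise of 0.44 (SE 0.069). ARG4 rose by 0.28, GLN1 by 0.36, BAT2 by 0.35, LYS1 by 0.22, ILV6 by 0.22 and TRP5 by 0.12, of which LYS1 no longer passed without the first course's 270 or 290 min array, and TRP5 without any of 4 of the 8 arrays in turn.

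Falls were led by LYS20, by 0.62 (SE 0.17, adjusted p = 0.00375), which was between 12.03 and 12.55 at 90 and 110 min and between 11.62 and 11.79 late. LEU1 fell by 0.51 (SE 0.064), from between 13.44 and 13.49 to between 12.94 and 13.01, LEU9 by 0.50 (SE 0.053) and ILV2 by 0.46 (SE 0.042). In these 4 genes, picked as the largest falls, the 2 sets of arrays did not overlap. The share of all genes without overlap was not counted, and each set comes from 2 cultures. Both asparagine synthetase genes, both proline genes and 4 of the 5 threonine and homoserine genes fell, and ARO1 of the 4 aromatic genes did not pass (-0.05, adjusted p = 0.431). The falls of ILV5, by 0.24, and HIS7, by 0.09, were each lost under 7 of 15 alternatives. Leaving out single arrays also ended the calls of LYS12, by 4 arrays, ASN1, by 2 (the first course's at 90 min and the second's at 270 min), ARO3 (the second's at 110 min) and THR1 (the first's at 110 min).

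The wild-type course shows the same genes in cells that can divide. It has 1 array per time and no replicate, so its levels are a description. The highest of 15 levels fell at 60 min in 20 of the 49 genes (40.8%, where 6.55% of all genes have their highest level at 60 min), among them GCN4, HOM3, SER1, SER33, ASN1, ASN2, LYS20 and LYS21. The lowest fell at 15 min in 19 and at 30 min in 9, for which shares over all genes were not counted. ARO4 had a trough at 30 min here too, at 11.24 between 12.04 at 15 min and 12.05 at 45 min, and so had ILV3, at 11.27 between 11.59 and 11.81. SER33 was at 10.88 at 15 min, 11.63 at 30 min and 11.72 at 60 min, below both cdc28-4 arrays at 30 min. HIS4 was highest on the first array, at 11.68, and lowest on the last, at 10.46.

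Over the 4 times both strains share (30, 90, 150 and 210 min), the mean level was lower in wild type in 46 of the 49 genes, where it was lower in 47.2% of all genes. The median difference was -0.64 (from -1.82 to 0.55), against 0.03 over all genes. It was -0.51 over 18 cytosolic tRNA synthetase genes, of which 18 were lower, and -0.45 over 19 other amino acid biosynthesis genes, of which 12 were lower. Over 12 genes that control GCN4 translation it was -0.36, with 10 lower, and over 14 regulators of single pathways -0.09, with 8 lower. Over 10 Gcn4 targets outside amino acid synthesis it was 0.03, with 4 lower. Read in listing order, the cdc28-4 samples were labelled with a One Cycle kit and the wild-type samples with a MessageAmp Premier kit, and the 3′ to 5′ log2 ratio of control probe sets differed between the strains (with a median of 1.03 and 0.82 in the cdc28-4 courses and a higher one in wild type), so strain, culture and kit cannot be told apart in these levels. They were not tested.

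Changes over time within a strain were then compared between strains, since a constant difference between kits cancels there. A difference in scale would not cancel; over all genes the SD of the change from 30 to 90 min was 0.694 in wild type and 0.676 in cdc28-4, and from 90 to 210 min 0.295 and 0.290. Over the 4 shared times, 19 of the 49 genes passed the F test of an interaction of strain and time, where 33.8% of all genes did, led by HIS4 (F = 82.6, adjusted p = 2.01e-08), SER33 (F = 63.9) and BAT1 (F = 30.4). With the course as a block 26 passed, where 50.3% of all genes did. GCN4 did not (F = 2.22, adjusted p = 0.214). The spread of the single wild-type arrays is here taken to equal that between the cdc28-4 courses.

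From 30 to 90 min, 7 genes changed more upward in wild type and 2 more downward, where 10.8% and 8.48% of all genes did, or 19.3% in all. HIS4 went from 11.46 to 10.99 in wild type, a change of -0.47, and fell by 2.44 and 2.41 in the cdc28-4 courses. SER33 went from 11.63 to 11.30, a change of -0.33, and fell by 1.74 and 1.59. HIS1 was at 12.89 and 13.13 in wild type, a change of 0.24, and fell by 0.44 and 0.82 in cdc28-4. ARG4, HOM3 and SER1 also fell by more in cdc28-4, where both courses lay beyond the wild-type change. HIS7 changed by 0.35 in wild type and by 0.02 and -0.11 in cdc28-4. GDH1 went the other way, from 12.19 to 12.15 in wild type, and rose by 0.69 and 0.76 in cdc28-4.

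CPA1 also differed, with a change of -0.35 in wild type, but its wild-type level was 12.48 at 75 min, 11.92 at 90 min and 12.48 at 105 min. With the mean of the 75 and 105 min arrays in place of 90 min, the difference for CPA1 was -0.08 (adjusted p = 0.635). Then 15 genes passed, 14 upward and 1 downward, where 21.2% of all genes passed, and 8 of these 15 were among the 9. With the course as a block, where 28.8% of all genes passed, 4 genes passed downward rather than 2, LYS4 (adjusted p = 0.0305) and LYS9 (0.0226) being added, and GLN1 (0.0103) and ARO1 (0.0330) were added upward.

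**Figure D5:**
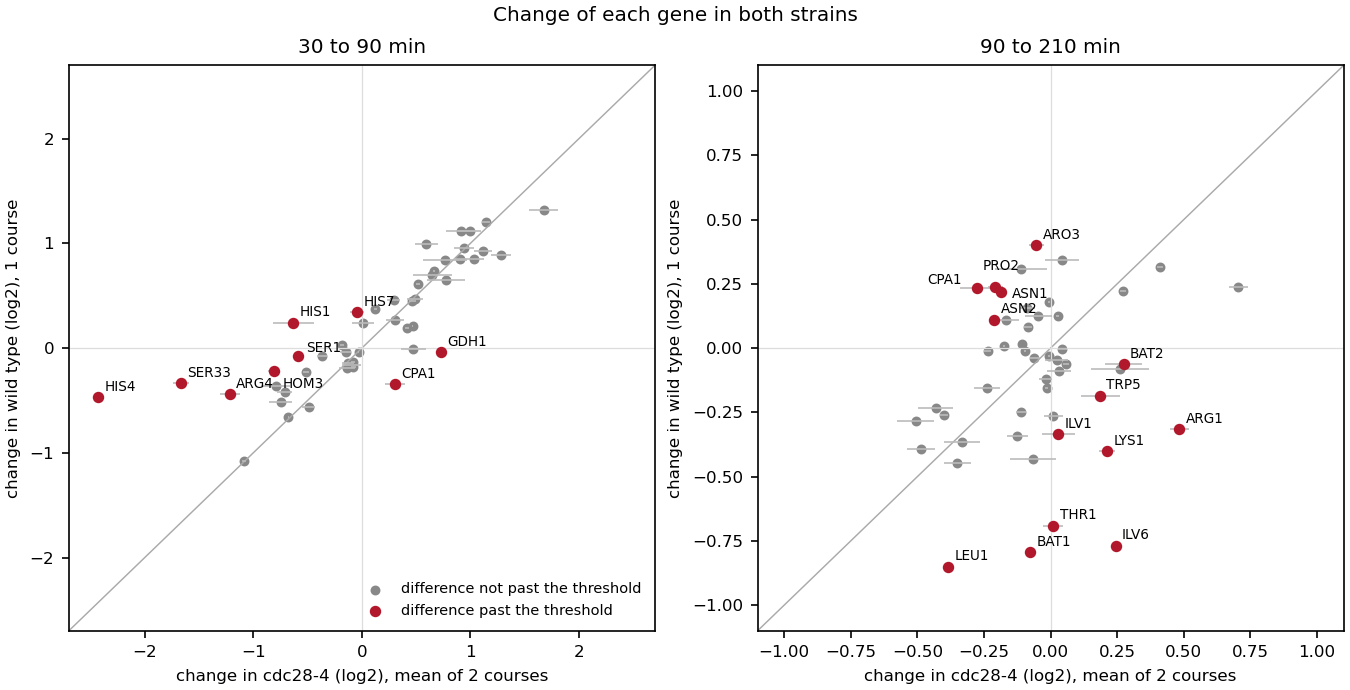
Log2 change in wild type (1 course) against that in cdc28-4 (mean of 2 courses) for each of the 49 genes, from 30 to 90 min (left) and 90 to 210 min (right), with horizontal bars joining the 2 cdc28-4 courses, the diagonal marking equal change and red points marking a difference past the threshold. HIS4 and SER33 lie far left of the diagonal in the left panel, and ILV6, BAT1 and THR1 far below it in the right one.

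From 90 to 210 min, 5 genes changed more upward in wild type and 9 more downward, where 13.5% and 11.2% of all genes did, or 24.7% in all. This comparison shares the 90 min arrays with the one before it. Its counts rested on single arrays: 6 genes passed without the first course's array at 90 min, 8 without its array at 210 min and 9 without the second course's array at 210 min. ARG1, BAT1 and ILV6 passed under all 13 alternatives. After median centring 3 genes were upward and 11 downward, while the split over all genes turned from 734 upward and 611 downward to 571 and 772. With the course as a block 19 genes passed, where 35.5% of all genes did, ARG3 (adjusted p = 0.0402), LYS9 (0.0396), LEU4 (0.0261), ILV3 (0.0431) and TRP3 (0.0364) being added.

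BAT1 went from 11.96 to 11.16 in wild type, a change of -0.80, and changed by -0.08 and -0.07 in the cdc28-4 courses. The last wild-type array, at 225 min, was lower still, at 10.95. ARG1 went from 12.05 to 11.73 in wild type and changed by 0.45 and 0.52 in cdc28-4, and LYS1 went from 11.71 to 11.31 and changed by 0.24 and 0.18. For these 3 genes the difference passed with neighbouring wild-type arrays in place of 90 min and in place of 210 min, at -1.24 and -0.90 for ARG1, -0.95 and -0.71 for BAT1, and -0.88 and -0.54 for LYS1. For LYS1 it was lost without the first course's 210 min array (adjusted p = 0.0518).

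ILV6 and THR1 differ from these in that 1 wild-type array stood apart. ILV6 was at 12.83, 12.44 and 13.05 at 195, 210 and 225 min, and THR1 at 12.76, 12.42 and 13.09. With the mean of the 195 and 225 min arrays in place of 210 min, the difference was -0.51 for ILV6 (adjusted p = 0.00384) and -0.20 for THR1 (0.236), and TRP5 (0.993), ILV1 (0.176), ARO3 (0.0919) and PRO2 (0.0702) no longer passed. Then 10 genes passed, 3 upward and 7 downward, where 22.5% of all genes passed. With the mean of 75 and 105 min in place of 90 min, 17 passed, 2 upward and 15 downward, where 31.3% of all genes passed, and CPA1 (0.736), ARO3 (0.530) and ASN2 (0.913) no longer did.

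Other genes were read for comparison. Over all genes, 31.4% rose and 24.5% fell from 10 to 30 min, 31.4% rose and 28.6% fell from 30 to 90 min, and 27.2% rose and 29.1% fell late. Of 19 measured amino acid synthesis genes outside the list, 6 rose and 3 fell from 10 to 30 min and 5 rose and 6 fell from 30 to 90 min. ALT1, for alanine transaminase, rose by 0.69 and then fell by 1.11, SER2, for the last step of serine synthesis, rose by 0.67, and ARO9, for an aromatic aminotransferase of amino acid breakdown, fell by 2.59 from 30 to 90 min. Of 10 Gcn4 targets outside amino acid synthesis, 4 rose and 4 fell from 10 to 30 min, and 4 rose and 3 fell from 30 to 90 min. SNZ1 and SNO1, a gene pair of vitamin B6 synthesis, rose by 1.61 and 1.22, and SNZ1 then fell by 1.70. ATG41 had the most negative change of the 10 in both steps, -0.93 and then -1.78.

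Of the 12 genes that control GCN4 translation, 6 rose and 2 fell from 10 to 30 min, and 12 rose from 30 to 90 min, with a median of 0.53. YIH1, an inhibitor of Gcn2 activation, rose by 0.94 and GCD11, the gamma subunit gene of eIF2, by 0.77. Late in the course 1 rose and 8 fell, GCD11 by 0.49. Of 14 regulators of single pathways, 8 rose and 1 fell from 10 to 30 min, led by BAS1, a factor of histidine and purine genes, by 0.88, and PUT3, the activator of proline use, by 0.86.

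The 18 cytosolic tRNA synthetase genes fell in 13 cases from 10 to 30 min and rose in 18 from 30 to 90 min, with medians of -0.44 and 0.81, and 15 fell late.

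Genes outside the list were also ranked by the likeness of their mean cdc28-4 profile to that of GCN4, as Pearson's r over 15 times. The 5 most alike were PST2 (0.93), SNO1 (0.92), TSA1 (0.92), PUT3 (0.91) and GDH2 (0.90), picked as the highest of 5448 genes. Within single cdc28-4 courses r of these genes with GCN4 was lower, from 0.74 to 0.89. The GCN4 profile itself had r of 0.72 between the courses. In wild type the same genes had r of 0.08, 0.35, 0.10, -0.48 and -0.19 with GCN4. Among the other 48 genes of the list, r with GCN4 in cdc28-4 ran from -0.86 to 0.81 with a median of 0.06, and 25 were positive. Over all 5448 other genes the median was 0.02 and 2851 were positive. In wild type, r of the 48 genes with GCN4 ran from -0.57 for ARO3 to 0.91 for SER1, and most were positive. The wild-type share over all genes was not counted. These are descriptions over arrays that share cultures and times.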

How the data were processed

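RNA of 48 samples was hybridised to single-colour yeast arrays, and the authors deposited 1 processed intensity per probe set and array on a linear scale. The affy package was used, per the submitters' processing notes. The version and the normalization were not given in the sources used here. Precision is limited by the number of courses, 2 in cdc28-4 and 1 in wild type, and not only by the number of arrays.

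Of 10928 probe sets, 5498 name 1 S. cerevisiae gene. For the 47 genes with several, the probe set of highest mean stood for the gene, which left 5449 genes. Background was the 95th percentile of 1746 fission yeast probe sets on each array. Deposited intensities were taken to log2 with no further normalization.

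One limma fit (limma 3.58.1, R 4.3.3) gave a mean to each of 33 combinations of strain and time. Its 15 residual degrees of freedom come from the cdc28-4 pairs, so single wild-type arrays are assumed to vary like them, and 4.00 prior degrees of freedom were added. P-values were Benjamini-Hochberg adjusted over all 5449 genes, with a threshold of 0.05. P-values measure the spread between 2 courses. The fit was tested on simulated data with independent noise on each array. That test cannot show how the p-values behave where arrays share a culture. The course number pairs cdc28-4 arrays, since arrays of a number come from the same course. The deviations of the courses correlated between times with r from 0.005 to 0.898 (median 0.468). The main fit has no term for the course and takes the arrays of a course as independent.

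The 49 genes and the further lists were chosen with earlier results of these data known. GCN4, up to 3 of the 49 genes with the largest rise and fall in a comparison, the 5 genes most like GCN4 and up to 3 genes of each further list were to be given in detail, and the other genes by pathway. Alternatives changed the normalization, the filter on dim genes, the probe set rule, the variance prior, the course block and the arrays left out; those that leave out 170 min or replace a wild-type array were chosen after seeing the data. Some genes of the further lists, promoters and protein sequences were not analysed here.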

Additional observations from a re-analysis of the deposited data

Results flagged for a closer look

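In 22 of the 49 genes the change over time differed between the strains by the limma interaction test, for CPA1 in both intervals: 9 from 30 to 90 min and 14 from 90 to 210 min, where 19.3% and 24.7% of all genes differed. Values are wild type minus cdc28-4, as log2 differences of changes. Strain, culture and labelling kit cannot be told apart here.

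From 30 to 90 min the difference was 1.9558 for HIS4, 1.3325 for SER33, 0.8723 for HIS1, 0.7744 for ARG4, 0.592 for HOM3, 0.5153 for SER1 and 0.39 for HIS7. A positive value means by definition that the change in cdc28-4 was the more negative one. For HIS7 that change was -0.04 and did not pass by itself (limma, adjusted p = 0.490). The difference was -0.7675 for GDH1, which rose in cdc28-4, and -0.6486 for CPA1.

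From 90 to 210 min it was -1.012 for ILV6, -0.7999 for ARG1, -0.7186 for BAT1, -0.7008 for THR1, -0.6135 for LYS1, -0.4649 for LEU1, -0.3711 for TRP5, -0.3643 for ILV1 and -0.3376 for BAT2. It was 0.5104 for CPA1, 0.4538 for ARO3, 0.4455 for PRO2, 0.404 for ASN1 and 0.3221 for ASN2. Single wild-type arrays moved with some of these: relative to the mean of the arrays before and after, CPA1 stood at -0.565 at 90 min and THR1 at -0.505 at 210 min.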

How the results depend on the processing

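Of the calls, 47 of 48 time effects, 30 of 38 changes from 10 to 30 min, 36 of 40 from 30 to 90 min and 26 of 35 late changes passed under every alternative run for them (37, 11, 11 and 15). So did 13 of 19 interactions over 4 times, 8 of 9 differences between strains from 30 to 90 min and 3 of 14 from 90 to 210 min (17, 12 and 13 alternatives). From 30 to 90 min the strain counts moved with neighbouring wild-type arrays in place of 90 min, to 15 genes, 14 upward and 1 downward, and with the replicate block, to 4 downward. From 90 to 210 min 3 were upward after median centring, 2 upward and 15 downward with neighbours in place of 90 min, and 3 upward with neighbours in place of 210 min. Leaving out single arrays gave 6 to 10 genes, 1 to 3 upward and 5 to 7 downward. The difference of CPA1 reversed to -0.0547 with neighbours in place of 90 min, and that of ASN2 turned to -0.02. The replicate block gave 49 time effects, 41 changes from 10 to 30 min, 41 from 30 to 90 min, 35 late changes, 26 interactions over 4 times, and 13 and 19 strain differences. The causes were not tested, beyond fewer arrays where arrays were left out. The 49 genes were above background on all arrays, and their mean cdc28-4 levels stood at percentiles from 64.2 to 97.3 of all genes. The part of signal level in these changes was not tested.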
